A study of Mus musculus with 20 samples.

Results

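Myofibroblasts grown from portal mesenchymal stem cells of the mouse liver were compared after 7 days and after 3 days in culture, in 8 of the 20 RNA-seq libraries of the series. PMSC-MF-7d and PMSC-MF-3d are the names of the groups at 7 and 3 days, with 4 libraries each, and every one of them was labelled as C57BL/6 liver. The libraries were taken by their titles, and all 14751 genes tested across the series were compared between both days. No treatment, genotype, age or sex is given in the labels, nor the culture medium. They do not say if replicates are distinct mice or dishes, so the variation between libraries may be technical. P-values reflect that variation within all 5 groups of the series, since the 20 libraries were fitted together. The same replicate numbers stand in PMSC-MF-7d and PMSC-MF-3d.

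Portal mesenchymal cells surround the portal vein and bile ducts of the liver. When activated they turn into myofibroblasts, which carry smooth muscle actin and myosin in stress fibres, pull on their surroundings and secrete collagen, and they are known as a source of scar tissue in bile duct disease. Proteases of the matrix metalloproteinase (MMP) family and their tissue inhibitors (TIMPs) set how much of that matrix stays, and inhibitors of the cyclin-dependent kinases (CDKs) hold the cell cycle before DNA replication.

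Levels are given in CPM, which are counts scaled to a common library size after trimmed mean (TMM) normalisation. Changes are log2 fold changes of PMSC-MF-7d over PMSC-MF-3d with their standard error (SE) from edgeR's quasi-likelihood test, and a gene is said to have risen or fallen where its Benjamini-Hochberg adjusted p over all 14751 genes was under 0.05. Summed counts per library ran from 22738017 to 26675589 in PMSC-MF-7d and from 23641579 to 24258856 in PMSC-MF-3d. At this threshold 2744 genes, or 18.6%, rose and 2566, or 17.4%, fell, which is 36% of the genes together. Rises were 51.7% of the calls, and which direction had more calls depended on the processing. They were 48.2% in a fit of the 8 libraries alone, 47.9% with DESeq2 and 45.1% with library totals. With limma on log2(TPM + 1) and log2(TPM + 0.1) they were 64.4% and 64%, where TPM is a gene's length-corrected share of a library's transcripts. The levels of both groups did not overlap for 6179 genes, or 41.9%. The median log2 change over all tested genes was 0.0045. The shares of all genes given beside the lists include genes near 0 in these 8 libraries. Among the 8842 genes of at least 10 CPM over both groups, 1899 rose and 2009 fell. The PMSC-MF-7d libraries were further apart from each other than the PMSC-MF-3d libraries, with replicates 1 and 2 at opposite ends, as described after the gene groups.

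**Figure D1:**
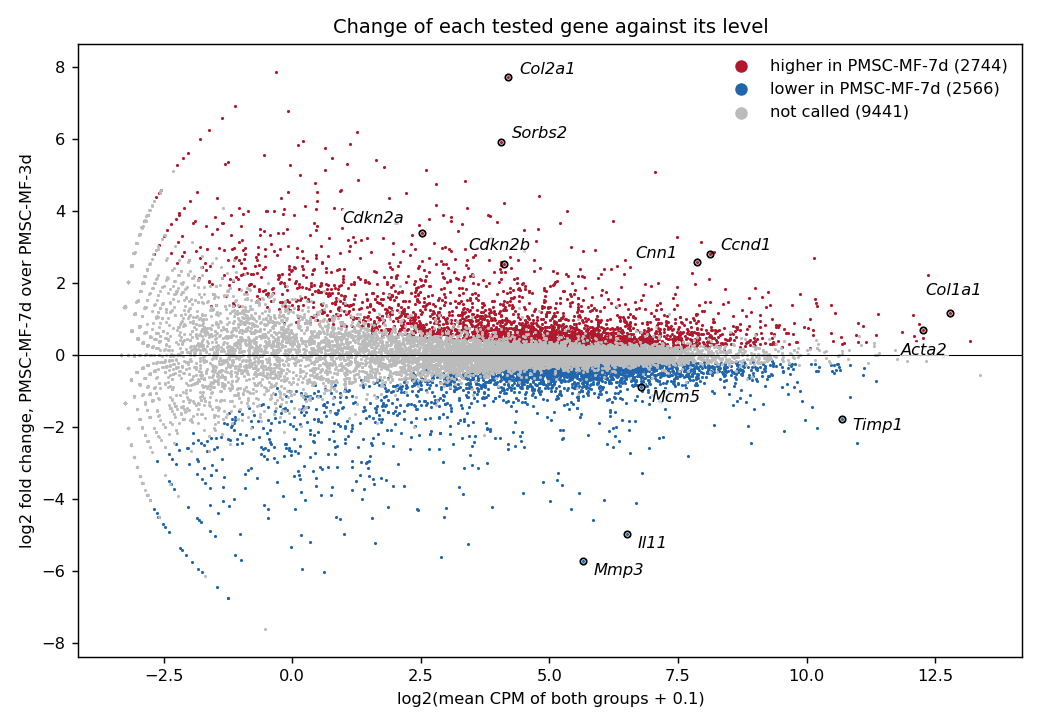
Log2 fold change of PMSC-MF-7d over PMSC-MF-3d (vertical) against the log2 of the mean level in CPM plus 0.1 (horizontal) for the 14751 tested genes, coloured by call. The 2744 genes that rose and the 2566 that fell lie on both sides at every level, and Col2a1, Sorbs2, Mmp3 and Il11 lie far out among the genes of moderate level.

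Most markers of the labelled cell type were abundant on both days. Of 12 genes kept as a myofibroblast list, 4 rose and 1 fell, beside 18.6% and 17.4% of all genes, and the median log2 change was 0.31. Acta2, Col1a1, Col1a2 and Tagln were high in every library, the lowest value being that of Tagln, at 2365 CPM in PMSC-MF-7d and 2164 CPM in PMSC-MF-3d. Des, the muscle intermediate filament desmin, was low at 12.2 to 24.6 CPM in PMSC-MF-7d and 13.7 to 21.3 CPM in PMSC-MF-3d. The one that fell was Timp1, described with the proteases.

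Contraction genes were mostly higher on day 7. Of 32 tested members of the contractile apparatus list, 18 rose and 4 fell, beside 18.6% and 17.4% of all genes, with a median log2 change of 0.40. Cnn1 encodes calponin, which binds actin and restrains myosin in smooth muscle (chr9:22099221-22109221 in GRCm38). It stood at 392, 412, 365 and 424 CPM in PMSC-MF-7d against 70.6, 57.2, 64.9 and 73.1 CPM in PMSC-MF-3d. All 4 day 7 libraries lay above every day 3 library, a log2 change of 2.58 ± 0.22 with an adjusted p of 4.7e-08. In bulk RNA, more cells that express a gene and more RNA of it per cell cannot be told apart.

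Myh11, the smooth muscle myosin heavy chain, had 263, 441, 389 and 358 CPM in PMSC-MF-7d and 50, 104, 77.8 and 69.3 CPM in PMSC-MF-3d. In both groups replicate 1 was the lowest and replicate 2 the highest, and the groups stayed apart, with a log2 change of 2.27 ± 0.27 (adjusted p = 3.5e-06). Sorbs2, an adaptor at stress fibres and Z-discs, went furthest of the list. It had 30.4, 42.8, 28.8 and 29.1 CPM in PMSC-MF-7d and 0.609, 0.337, 0.660 and 0.527 CPM in PMSC-MF-3d, which is 60.7-fold higher (log2 change 5.92 ± 0.48, adjusted p = 3.1e-08). It was close to silent in every day 3 library.

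Others of the list rose by less. Actg2, the enteric smooth muscle actin, averaged 943 ± 209 CPM in PMSC-MF-7d and 280 ± 53 CPM in PMSC-MF-3d (SD, n = 4 each, log2 change 1.75 ± 0.22, adjusted p = 6.5e-06). Myl9, the regulatory myosin light chain, averaged 605 ± 35.0 CPM in PMSC-MF-7d and 255 ± 22.8 CPM in PMSC-MF-3d (log2 change 1.25 ± 0.13, adjusted p = 5.9e-07). Mylk, the kinase that switches that light chain on, averaged 359 ± 27.6 CPM in PMSC-MF-7d and 209 ± 48.0 CPM in PMSC-MF-3d (0.78 ± 0.16, adjusted p = 0.00083). Acta2, smooth muscle alpha-actin, rose only 1.61-fold (0.69 ± 0.19, adjusted p = 0.0070).

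Tagln, the actin-bundling protein transgelin and a usual marker of the same programme, did not pass. It had 2365, 3548, 2469 and 2842 CPM in PMSC-MF-7d and 2164, 2223, 2318 and 2279 CPM in PMSC-MF-3d, so that the groups did not overlap although the log2 change of 0.32 ± 0.22 had an adjusted p of 0.28. With the replicate number as a block in a fit of the 8 libraries it passed, at 0.29 (adjusted p = 0.033), and in the fit of the 8 libraries without the block at 0.31 (adjusted p = 0.037). The 4 members that fell were Csrp2, Smtn, Tpm3 and Pdlim7. Csrp2, a cytoskeletal LIM protein, averaged 65.5 ± 8.53 CPM in PMSC-MF-7d and 158 ± 21.5 CPM in PMSC-MF-3d (-1.27 ± 0.20, adjusted p = 6.2e-05), while its relative Csrp1 rose by 1.10 ± 0.08 (adjusted p = 1.4e-08). Of the 4, Csrp2 alone kept its call under all alternatives run, and the number that fell was 1 without PMSC-MF-3d replicate 1 or replicate 2 and 2 without PMSC-MF-7d replicate 1 or replicate 3.

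Of 23 tested focal adhesion genes, whose products anchor stress fibres, 9 rose and 5 fell, beside 18.6% and 17.4% of all genes, with a median log2 change of 0.34, and without PMSC-MF-3d replicate 1 the number that fell was 3. The collagen receptor subunit Itga1 averaged 83.8 ± 14.2 CPM in PMSC-MF-7d and 18.7 ± 1.21 CPM in PMSC-MF-3d (2.16 ± 0.21, adjusted p = 2.5e-07). Itga8, a receptor subunit for RGD ligands such as nephronectin, had 48.2, 26.5, 27.1 and 29.1 CPM in PMSC-MF-7d and 6.20, 13.2, 10.5 and 6.85 CPM in PMSC-MF-3d (1.84 ± 0.27, adjusted p = 2.7e-05). Vcl, vinculin, rose 1.68-fold (0.75 ± 0.10, adjusted p = 6.4e-06), and the zyxin gene Zyx was among those that fell.

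Of 20 factors and targets of SRF, myocardin and YAP-TEAD, which act upstream of many contraction genes, 7 rose and 2 fell, beside 18.6% and 17.4% of all genes, with a median log2 change of 0.15. Srf itself fell, averaging 120 ± 16.8 CPM in PMSC-MF-7d and 178 ± 8.82 CPM in PMSC-MF-3d (-0.56 ± 0.11, adjusted p = 0.00074). Ctgf, a widely used YAP target, stood at 2313, 3651, 3722 and 3674 CPM in PMSC-MF-7d and 3665, 3599, 3510 and 3768 CPM in PMSC-MF-3d. Only PMSC-MF-7d replicate 1 lay below the day 3 range, and the log2 change was -0.12 ± 0.21 (adjusted p = 0.70).

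**Figure D2:**
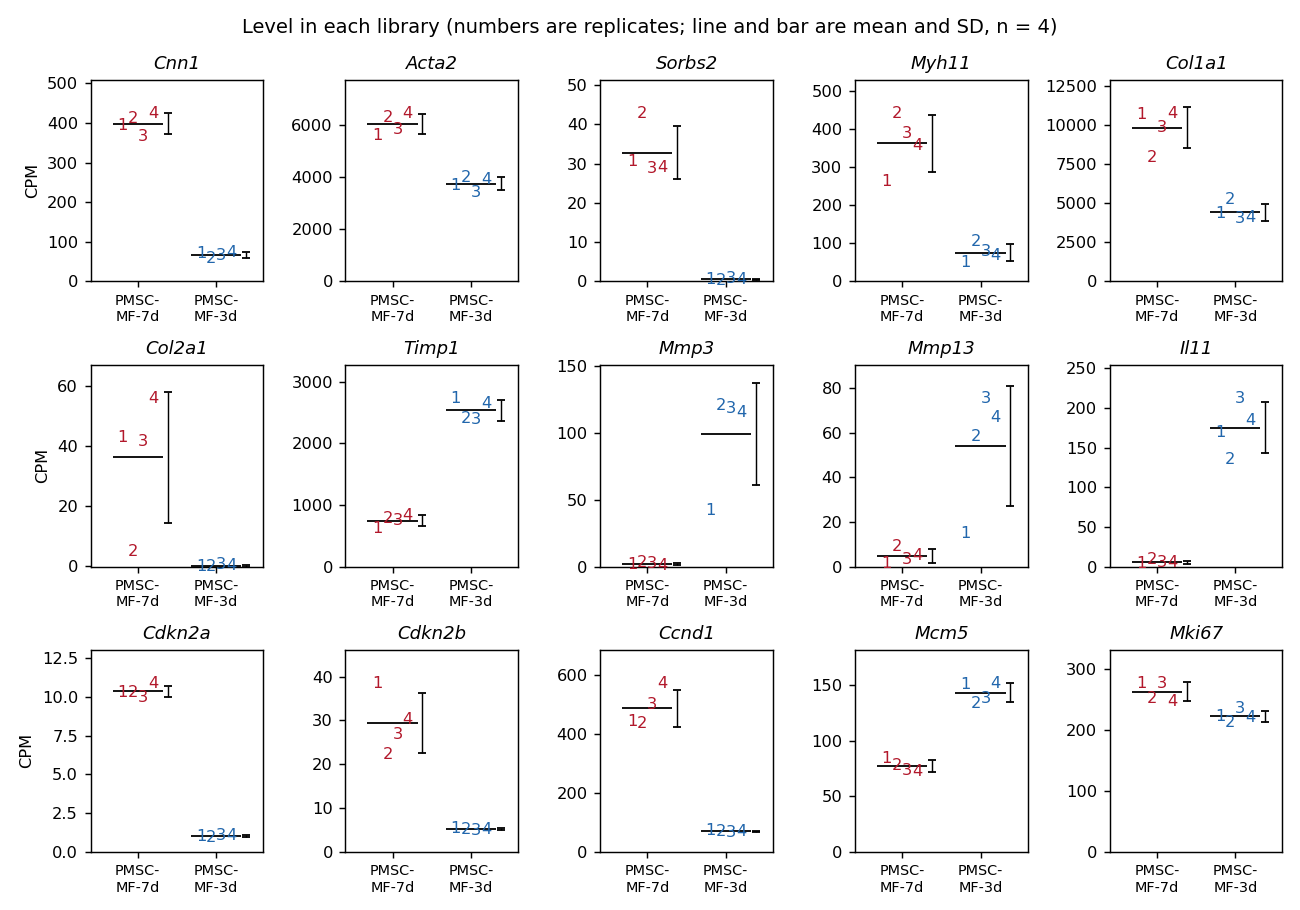
Level in CPM (vertical, linear, each panel on its own scale) of 15 genes in each library of PMSC-MF-7d and PMSC-MF-3d, with the replicate number as the symbol, the mean as a line and the SD as a bar (n = 4 each). Cnn1, Cdkn2a and Ccnd1 are tight in both groups, Col2a1 is low in PMSC-MF-7d replicate 2, and Mmp3 and Mmp13 are low in PMSC-MF-3d replicate 1.

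Many fibrillar collagens rose and few fell. Of 18 tested members 9 rose and 1 fell, beside 18.6% and 17.4% of all genes, with a median log2 change of 0.48. Of the same list, 2 more had too few counts and 1 was not analysed here. Col1a1 and Col1a2, the chains of collagen I, rose 2.22-fold and 2.15-fold (1.15 ± 0.31, adjusted p = 0.0060, and 1.10 ± 0.14, adjusted p = 7.1e-06). Col5a1, which sets fibril width, had 2093, 1645, 2135 and 2412 CPM in PMSC-MF-7d against 804, 830, 756 and 770 CPM in PMSC-MF-3d (1.39 ± 0.13, adjusted p = 1.3e-07). Col3a1, the partner of collagen I in soft tissue, did not pass, with 1649, 940, 1150 and 1503 CPM in PMSC-MF-7d and 1091, 1070, 1085 and 1040 CPM in PMSC-MF-3d (0.29 ± 0.19, adjusted p = 0.24).

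Collagens that attach to fibrils differed from gene to gene. Col14a1, which decorates fibrils, had 239, 68.1, 134 and 202 CPM in PMSC-MF-7d and 31.7, 30, 26.8 and 29.4 CPM in PMSC-MF-3d (2.45 ± 0.25, adjusted p = 5.9e-07). Col12a1 averaged 1322 ± 194 CPM in PMSC-MF-7d and 991 ± 93.6 CPM in PMSC-MF-3d, which did not pass over the 5 groups (0.42 ± 0.37, adjusted p = 0.42) and did in the fit of the 8 libraries, without the replicate block (0.40, adjusted p = 0.0075) and with it (0.40, adjusted p = 0.015). Col27a1 was the member that fell (-0.84 ± 0.19, adjusted p = 0.0023).

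Col2a1, the collagen of cartilage, had the largest increase of the called genes of at least 20 CPM whose groups did not overlap, predicted and small RNA genes left out (chr15:97975602-98004724 in GRCm38, minus strand). It had 42.9, 5.02, 41.5 and 56.0 CPM in PMSC-MF-7d, and 0, 0, 0.514 and 0.15 CPM in PMSC-MF-3d, where all 4 libraries together held 18 counts. PMSC-MF-7d replicate 2 was far below the other 3 and still above every day 3 library. The log2 change was 7.71 ± 0.88 (adjusted p = 5.1e-06) and 9.33 without PMSC-MF-3d replicate 3, which held 14 of those 18 counts, so its size is poorly fixed. Per length, Col2a1 reached 17.1 ± 10.2 TPM in PMSC-MF-7d, against 3946 TPM for Col1a1 in the same libraries. Of 19 tested cartilage and tendon matrix genes and regulators, 4 rose and 6 fell, beside 18.6% and 17.4% of all genes. Their median log2 change was 0.08. The summed level of that list was 131 to 186 CPM in PMSC-MF-7d and 252 to 455 CPM in PMSC-MF-3d.

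Col2a1 is made as a longer IIA form, known from cells before they become cartilage, and a shorter IIB form of mature cartilage that lacks exon 2. That exon encodes a cysteine-rich domain of the propeptide, and it is printed here, from the RefSeq mRNA of the GENCODE M21 transcripts on GRCm38, because it tells the forms apart. It is 204 bases long at chr15:98000403-98000606 on the minus strand and is coding over its whole length.

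Col2a1 exon 2: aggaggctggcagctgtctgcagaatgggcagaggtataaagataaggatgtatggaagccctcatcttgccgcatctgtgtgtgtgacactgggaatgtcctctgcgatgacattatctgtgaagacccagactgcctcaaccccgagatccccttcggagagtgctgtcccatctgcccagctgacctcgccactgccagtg

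The mean transcript length deposited with each gene fell between those of a form with and a form without these 204 bases. If the longest and the shortest value over the libraries are taken as those of the forms, and no other transcript contributed, the form with exon 2 made up 97.3%, 57.4%, 100% and 86.5% of Col2a1 transcripts in PMSC-MF-7d replicates 1 to 4, from 1184, 123, 1131 and 1583 expected counts. The lowest share was in the library with the fewest counts. Shares at day 3 rest on at most 14 counts and are not given, and the form was looked at after the values were seen, so no test is attached.

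Among the enzymes that process collagen several rose and 1 fell. Of 24 tested members 12 rose and 1 fell, beside 18.6% and 17.4% of all genes, with a median log2 change of 0.33. Pcolce, the enhancer of the procollagen C-proteinase, averaged 349 ± 83.7 CPM in PMSC-MF-7d and 150 ± 29.3 CPM in PMSC-MF-3d (1.22 ± 0.15, adjusted p = 5.0e-06). Loxl2, a crosslinking lysyl oxidase, had 444, 832, 715 and 711 CPM in PMSC-MF-7d and 282, 324, 277 and 303 CPM in PMSC-MF-3d (1.19 ± 0.16, adjusted p = 1.6e-05). P4ha3, a subunit of prolyl hydroxylase, rose 2.29-fold (1.2 ± 0.24, adjusted p = 0.00063). The member that fell was Ppib, the endoplasmic reticulum cyclophilin (-0.39 ± 0.08, adjusted p = 0.00075), and 3 fell in the fit of the 8 libraries, with or without the replicate block.

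Basement membrane genes rose in the main. Of 24 members 14 rose and 5 fell, beside 18.6% and 17.4% of all genes, with a median log2 change of 0.56. Nid1, nidogen, averaged 3706 ± 698 CPM in PMSC-MF-7d and 1681 ± 129 CPM in PMSC-MF-3d (1.14 ± 0.14, adjusted p = 4.1e-06), and Col4a1 averaged 4535 ± 173 CPM in PMSC-MF-7d and 2917 ± 357 CPM in PMSC-MF-3d (0.64 ± 0.10, adjusted p = 8.7e-05). Lama5, the laminin alpha 5 chain, had 68.1, 14.2, 40.1 and 55.8 CPM in PMSC-MF-7d and 3.5, 8.62, 8.51 and 8.13 CPM in PMSC-MF-3d (2.63 ± 0.38, adjusted p = 2.5e-05). The replicate block ended that call, at 2.47 with an adjusted p of 0.058. Lamc3, the laminin gamma 3 chain, fell, with 0.434, 6.40, 2.93 and 3.57 CPM in PMSC-MF-7d and 11.4, 23.5, 19 and 22.6 CPM in PMSC-MF-3d (-2.53 ± 0.48, adjusted p = 0.00036).

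More elastic fibre genes rose than fell, while the median log2 change was only 0.02. Of 19 members 7 rose and 3 fell, beside 18.6% and 17.4% of all genes, so the share that fell was near that of all genes. Without PMSC-MF-7d replicate 1, 5 fell. Eln, elastin, had 191, 3.83, 118 and 102 CPM in PMSC-MF-7d against 19.7, 7.65, 13.8 and 14.3 CPM in PMSC-MF-3d. Replicate 2 was below all 4 day 3 libraries and the other 3 were above them. The call (2.90 ± 0.67, adjusted p = 0.0022) did not hold in the fit of the 8 libraries (2.89, adjusted p = 0.052) or with the replicate block (2.37, adjusted p = 0.125). Fbln5, the fibulin that seeds elastin, had 621, 251, 285 and 375 CPM in PMSC-MF-7d and 191, 121, 112 and 132 CPM in PMSC-MF-3d, with every day 7 library higher (1.46 ± 0.24, adjusted p = 9.9e-05).

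More genes of matrix proteases and their inhibitors rose than fell. Of 21 tested MMPs and TIMPs, 4 more having too few counts, 10 rose and 6 fell, beside 18.6% and 17.4% of all genes. Their median log2 change was 0.35. The 6 that fell were the secreted collagenases Mmp13 and Mmp8, the stromelysins Mmp3 and Mmp10, the gelatinase Mmp9 and the inhibitor Timp1. Those that rose included the membrane-bound Mmp14 and Mmp16 and the inhibitors Timp2 and Timp3.

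Mmp3 had 1.59, 2.94, 2.02 and 1.02 CPM in PMSC-MF-7d and 42.1, 120, 118 and 115 CPM in PMSC-MF-3d. It was 52.6-fold lower on day 7, with a log2 change of -5.72 ± 0.43 (adjusted p = 1.3e-08), and PMSC-MF-3d replicate 1 was the low one of its group. Mmp13 had 1.41, 9.13, 3.37 and 4.88 CPM in PMSC-MF-7d and 14.8, 58.4, 75.4 and 66.9 CPM in PMSC-MF-3d, low in that same day 3 library (-3.53 ± 0.51, adjusted p = 2.7e-05). Mmp10 had 5.25, 26.1, 12.2 and 7.78 CPM in PMSC-MF-7d and 24.2, 65.0, 82.9 and 82.8 CPM in PMSC-MF-3d. Its groups overlapped between PMSC-MF-7d replicate 2 and PMSC-MF-3d replicate 1, with a log2 change of -2.32 ± 0.42 (adjusted p = 0.00026) that was -2.92 without the day 7 library.

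Timp1 had 614, 788, 747 and 822 CPM in PMSC-MF-7d and 2730, 2404, 2392 and 2641 CPM in PMSC-MF-3d (-1.77 ± 0.28, adjusted p = 7.0e-05). Timp2 ran the other way at 1890, 1364, 1774 and 1768 CPM in PMSC-MF-7d and 578, 639, 549 and 574 CPM in PMSC-MF-3d (1.54 ± 0.10, adjusted p = 3.2e-09). Timp3, which stays bound to the matrix, averaged 1714 ± 164 CPM in PMSC-MF-7d and 626 ± 73.0 CPM in PMSC-MF-3d (1.45 ± 0.13, adjusted p = 9.8e-08). Per length, mean levels in PMSC-MF-7d were 2530 TPM for Timp1, 1147 TPM for Timp2 and 880 TPM for Timp3, and in PMSC-MF-3d 8067, 368 and 300 TPM.

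Mmp2, the gelatinase most widely made by fibroblasts, averaged 128 ± 42.5 CPM in PMSC-MF-7d and 124 ± 17.4 CPM in PMSC-MF-3d (0.05 ± 0.17, adjusted p = 0.87). Mmp14, which activates it at the cell surface, averaged 1001 ± 48.1 CPM in PMSC-MF-7d and 787 ± 81.4 CPM in PMSC-MF-3d (0.35 ± 0.09, adjusted p = 0.0065). In the 4 PMSC libraries, of portal stem cells without culture, Mmp10 averaged 0.213 ± 0.283 CPM and Mmp13 0.129 ± 0.156 CPM, whereas Mmp3 averaged 795 ± 183 CPM.

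Mmp3, Mmp10 and Mmp13 lie in one cluster of MMP genes on chromosome 9. Each has a match to TGANTCA, the site of the AP-1 factors of the Fos and Jun families, close to a start listed for it. Il11, described next, has one too. The 180 bases before that start are printed for these 4 genes from the RefSeq promoter table of GRCm38.p6, on the strand of the gene. They are printed because these are the strongly lowered members with a match. Capitals mark the match, whose opening base lies 46, 63, 35 and 98 bases before the start. The windows are chr9:7445642-7445821 for Mmp3, chr9:7502162-7502341 for Mmp10 and chr9:7272334-7272513 for Mmp13, all on the plus strand, and chr7:4778142-4778321 on the minus strand for Il11. The Il11 window lies within the span of the gene, chr7:4772373-4782907, so it stands before an inner start. Where several starts of a gene were listed, one with matches was preferred.

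Mmp3: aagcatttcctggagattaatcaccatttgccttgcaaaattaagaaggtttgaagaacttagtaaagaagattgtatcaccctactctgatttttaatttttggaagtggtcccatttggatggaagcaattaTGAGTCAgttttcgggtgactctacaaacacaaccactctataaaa
Mmp10: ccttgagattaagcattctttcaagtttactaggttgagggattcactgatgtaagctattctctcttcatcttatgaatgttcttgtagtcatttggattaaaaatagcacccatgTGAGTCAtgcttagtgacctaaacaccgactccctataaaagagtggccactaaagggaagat
Mmp13: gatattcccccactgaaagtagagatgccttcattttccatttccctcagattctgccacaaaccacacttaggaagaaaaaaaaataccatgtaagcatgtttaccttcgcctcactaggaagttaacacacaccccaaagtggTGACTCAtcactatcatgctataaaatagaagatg
Il11: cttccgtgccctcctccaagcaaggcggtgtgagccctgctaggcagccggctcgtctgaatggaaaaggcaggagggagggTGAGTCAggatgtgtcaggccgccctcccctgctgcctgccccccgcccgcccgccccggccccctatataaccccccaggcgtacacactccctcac

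The motif was searched on both strands from 250 bases before to 50 after the start. It was found in 3 of the 5 lowered MMP and TIMP genes with a promoter in the table and in none of the 7 raised ones. Over the whole table it was found in 8.97% of 27025 promoters, and in 6.94% of genes that rose and 7.25% of genes that fell. Of promoters of the 20 largest increases it was in 2 of 14, and of the 20 largest decreases in 3 of 14. Raised contractile genes had it in 2 of 15. A second motif, the CArG box of SRF, was also searched, and was in 2 of those 15 and in no MMP or TIMP gene called. The gene sets were picked with their changes known, and no test was run. A match is a run of letters, and binding was not measured.

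The AP-1 genes themselves did not move one way. Of 32 genes of ERK feedback, AP-1 and the EGFR ligands 10 rose and 9 fell, beside 18.6% and 17.4% of all genes. Their median log2 change was -0.19, and 14 fell with the replicate block. Fosl1, the Fra-1 subunit of AP-1, averaged 51.1 ± 13.7 CPM in PMSC-MF-7d and 129 ± 3.88 CPM in PMSC-MF-3d (-1.33 ± 0.22, adjusted p = 0.00012). Fos had 32.9, 7.18, 10.7 and 14.3 CPM in PMSC-MF-7d and 5.36, 6.45, 4.55 and 5.27 CPM in PMSC-MF-3d, a rise of 1.59 ± 0.40 (adjusted p = 0.0038) that was 0.99 without PMSC-MF-7d replicate 1. Dusp1, a phosphatase that switches off MAP kinases, averaged 111 ± 11.8 CPM in PMSC-MF-7d and 21.2 ± 2.44 CPM in PMSC-MF-3d (2.39 ± 0.18, adjusted p = 1.2e-08).

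More cytokine genes fell than rose. Of 26 tested genes of the IL-6 and IL-1 families and haematopoietic cytokines 4 rose and 10 fell, beside 18.6% and 17.4% of all genes. Their median log2 change was -0.42. Il11, an IL-6 family cytokine known to act on fibroblasts, had 3.37, 8.36, 4.99 and 5.66 CPM in PMSC-MF-7d and 170, 135, 212 and 185 CPM in PMSC-MF-3d. The groups were far apart, 31.4-fold lower on day 7 (-4.97 ± 0.36, adjusted p = 9.4e-09). In the PMSC libraries it averaged 30.3 ± 10.8 CPM.

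Lif, another ligand of the family, had 18, 37.1, 28.7 and 24.6 CPM in PMSC-MF-7d and 135, 106, 137 and 134 CPM in PMSC-MF-3d (-2.24 ± 0.30, adjusted p = 1.3e-05). Clcf1, one more ligand, averaged 35.8 ± 3.86 CPM in PMSC-MF-7d and 71.6 ± 13.1 CPM in PMSC-MF-3d (-1.0 ± 0.19, adjusted p = 0.00037). Their shared receptor chain gp130, encoded by Il6st, rose, with 547, 351, 450 and 386 CPM in PMSC-MF-7d and 281, 320, 286 and 283 CPM in PMSC-MF-3d (0.57 ± 0.13, adjusted p = 0.0015). Il6 also rose, at 11.4, 21.2, 17 and 18.6 CPM in PMSC-MF-7d against 6.96, 8.06, 8.58 and 8.35 CPM in PMSC-MF-3d (1.09 ± 0.31, adjusted p = 0.0086). Il1rl1, the receptor of IL-33, had 0.978, 2.04, 0.623 and 1.45 CPM in PMSC-MF-7d and 30.9, 15.2, 14.7 and 12.9 CPM in PMSC-MF-3d (-3.86 ± 0.56, adjusted p = 2.6e-05).

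Of 21 tested chemokines 1 rose and 6 fell, beside 18.6% and 17.4% of all genes, with a median log2 change of -0.67. The one that rose was below 1 CPM on average in both groups, was not called in the 8 libraries alone, with or without the replicate block, and 2 rose without PMSC-MF-3d replicate 2. Ccl2, which attracts monocytes, had 29.3, 35.5, 39.6 and 47.2 CPM in PMSC-MF-7d and 175, 88.8, 130 and 139 CPM in PMSC-MF-3d (-1.81 ± 0.37, adjusted p = 0.00074). Cx3cl1, fractalkine, averaged 13.3 ± 5.06 CPM in PMSC-MF-7d and 32.8 ± 7.52 CPM in PMSC-MF-3d (-1.30 ± 0.25, adjusted p = 0.00039). Cxcl12, the most abundant of the list, averaged 658 ± 169 CPM in PMSC-MF-7d and 665 ± 111 CPM in PMSC-MF-3d and did not pass (-0.02 ± 0.19, adjusted p = 0.98). Tgfb1, a ligand that drives myofibroblasts, fell, with 30.7, 38.7, 38 and 35.4 CPM in PMSC-MF-7d and 168, 136, 146 and 156 CPM in PMSC-MF-3d (-2.09 ± 0.08, adjusted p = 2.5e-12). Tgfb2 rose, averaging 41.8 ± 6.56 CPM in PMSC-MF-7d and 27.9 ± 3.72 CPM in PMSC-MF-3d (0.58 ± 0.13, adjusted p = 0.0016). Of 32 tested genes of TGF-beta, activin and BMP signalling 12 rose and 8 fell, beside 18.6% and 17.4% of all genes. Their median log2 change was 0.16.

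Beside cytokines and proteases, the 20 largest decreases of genes of at least 20 CPM held secreted and metabolic genes. Star, which brings cholesterol into mitochondria for steroid synthesis, averaged 4.65 ± 2.62 CPM in PMSC-MF-7d and 111 ± 11.3 CPM in PMSC-MF-3d (-4.58 ± 0.31, adjusted p = 5.3e-09). Penk, the enkephalin precursor, averaged 0.537 ± 0.140 CPM in PMSC-MF-7d and 20.8 ± 4.96 CPM in PMSC-MF-3d (-5.25 ± 0.38, adjusted p = 9.4e-09). Cyp1a1, a target of the aryl hydrocarbon receptor, averaged 11.1 ± 4.22 CPM in PMSC-MF-7d and 194 ± 21.1 CPM in PMSC-MF-3d (-4.13 ± 0.43, adjusted p = 6.8e-07). The glutathione transferases Gsta3 and Gsta4, whose family members can share reads, fell 16.3-fold and 9.79-fold, and Slc7a11, the cystine importer that feeds glutathione synthesis, fell 6.99-fold. Hsd11b1, which regenerates active glucocorticoid, fell 9.71-fold, and Spp1, osteopontin, fell 11.0-fold.

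The size of those decreases depended on 1 library for Cilp, Lum and Thbs4. Cilp, a matrix protein first described in cartilage, had 11.2, 1.06, 1.36 and 2.97 CPM in PMSC-MF-7d and 120, 61.3, 71.9 and 70.9 CPM in PMSC-MF-3d. Lum, lumican, had 18, 2.24, 1.72 and 2.69 CPM in PMSC-MF-7d and 66.9, 99.8, 101 and 87.2 CPM in PMSC-MF-3d. Thbs4, a thrombospondin, had 12.5, 0.326, 0.806 and 0.848 CPM in PMSC-MF-7d and 149, 27.9, 48.7 and 18.1 CPM in PMSC-MF-3d. In each of them PMSC-MF-7d replicate 1 kept the most, and without it the log2 changes were -5.48 for Cilp, -5.32 for Lum and -6.50 for Thbs4, against -4.27 ± 0.54, -3.84 ± 0.52 and -4.06 ± 0.83 with it. Without PMSC-MF-3d replicate 1 the change of Thbs4 was -3.11.

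At the other end, Wisp2, a matricellular protein of the CCN family, had 388, 95.5, 193 and 352 CPM in PMSC-MF-7d and 9.82, 6.45, 7.63 and 6.36 CPM in PMSC-MF-3d (5.09 ± 0.36, adjusted p = 3.1e-08). Cyp26b1, which breaks down retinoic acid, had 61.4, 26.1, 48.4 and 74.8 CPM in PMSC-MF-7d and 3.77, 1.31, 1.32 and 3.42 CPM in PMSC-MF-3d (4.42 ± 0.57, adjusted p = 7.2e-06). In both genes the lowest day 7 library, replicate 2, was still well above day 3. Mcam, an adhesion molecule of pericytes, averaged 141 ± 28.3 CPM in PMSC-MF-7d and 10.7 ± 1.12 CPM in PMSC-MF-3d (3.71 ± 0.26, adjusted p = 7.4e-09). Dmpk, the myotonic dystrophy kinase of muscle, averaged 322 ± 35.8 CPM in PMSC-MF-7d and 33.5 ± 4.54 CPM in PMSC-MF-3d (3.26 ± 0.25, adjusted p = 1.9e-08). Igfbp2, which binds insulin-like growth factors, averaged 441 ± 93.6 CPM in PMSC-MF-7d and 50 ± 4.74 CPM in PMSC-MF-3d (3.14 ± 0.34, adjusted p = 1.1e-06).

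Of 28 markers of portal fibroblasts and mesenchymal progenitors 11 rose and 6 fell, beside 18.6% and 17.4% of all genes, with a median log2 change of -0.01. Among those that rose were Mcam (3.71), Ly6a (3.49), Cd248 (2.86) and Thy1 (2.82). Among those that fell were Dpt (-2.48), Nt5e (-1.59) and Tcf21 (-1.33). The summed level of the list was 10927 to 13420 CPM in PMSC-MF-7d and 7615 to 8017 CPM in PMSC-MF-3d.

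More brakes of the cell cycle rose than fell. Of 17 CDK inhibitors, pocket proteins and their partners 7 rose and 1 fell, beside 18.6% and 17.4% of all genes. Their median log2 change was 0.23. Cdkn2a had 10.3, 10.3, 9.97 and 10.9 CPM in PMSC-MF-7d and 0.951, 0.937, 1.06 and 1.02 CPM in PMSC-MF-3d. The 4 libraries of each group agreed closely, 10.4-fold higher on day 7 (3.37 ± 0.43, adjusted p = 6.3e-06). Cdkn2b, its neighbour on chromosome 4 and the source of p15, had 38.4, 22.2, 26.8 and 30.3 CPM in PMSC-MF-7d and 5.40, 5.10, 4.88 and 5.19 CPM in PMSC-MF-3d (2.51 ± 0.30, adjusted p = 2.5e-06). Mean levels per length in PMSC-MF-7d were 34.4 TPM for Cdkn2a and 57.5 TPM for Cdkn2b.

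Cdkn2a gives rise to p16, which blocks CDK4 and CDK6, and to ARF, which releases p53, from alternative opening exons read in different frames. The ARF exon lies at chr4:89294334-89294653 and the p16 exon at chr4:89281986-89282192, both on the minus strand of GRCm38. The deposited mean transcript length gives their shares if the longest and the shortest value over the libraries are taken as those of ARF and p16 and no other transcript contributed. On that assumption the p16 transcript made up 19.3%, 32.3%, 32.7% and 34.5% of Cdkn2a in PMSC-MF-7d, from 284, 252, 272 and 307 expected counts. In PMSC-MF-3d it was 0%, 0%, 12.3% and 0%, from 25, 25, 29 and 27 expected counts. The ARF transcript was thus the larger part in every library, at 80.7%, 67.7%, 67.3% and 65.5% in PMSC-MF-7d. These shares were worked out after the values were seen, carry no test, and at day 3 rest on few counts.

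**Figure D3:**
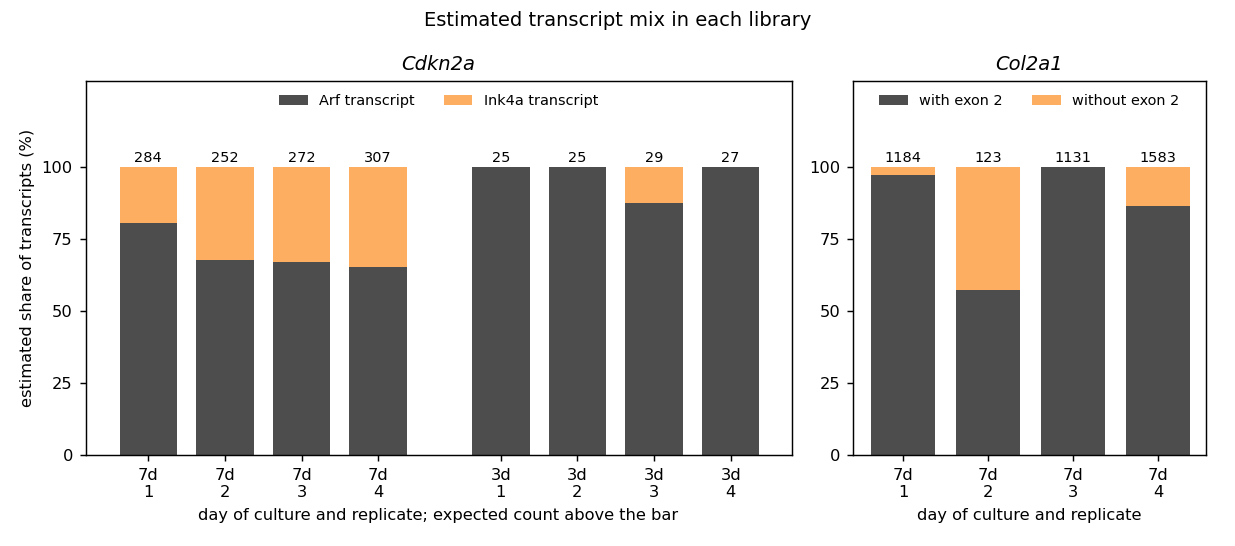
Estimated share of transcripts in percent (vertical) in each library, for Cdkn2a in PMSC-MF-7d and PMSC-MF-3d and for Col2a1 in PMSC-MF-7d, with expected counts above the bars. The p16 (Ink4a) transcript has 19.3% to 34.5% of Cdkn2a in PMSC-MF-7d, and the share of Col2a1 with exon 2 is lowest, 57.4%, in replicate 2.

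The other brakes moved less. Cdkn1a, which encodes p21, had 306, 390, 377 and 385 CPM in PMSC-MF-7d and 272, 308, 290 and 294 CPM in PMSC-MF-3d. Its groups overlapped through PMSC-MF-7d replicate 1, and the call (0.33 ± 0.11, adjusted p = 0.021) was lost without PMSC-MF-7d replicate 2, 3 or 4 or PMSC-MF-3d replicate 1, with adjusted p-values of 0.056, 0.054, 0.060 and 0.065. Cdkn1b, which encodes p27, averaged 27.4 ± 7.09 CPM in PMSC-MF-7d and 17.3 ± 0.832 CPM in PMSC-MF-3d (0.67 ± 0.14, adjusted p = 0.0012). The retinoblastoma gene Rb1 averaged 30.5 ± 2.11 CPM in PMSC-MF-7d and 19.5 ± 1.92 CPM in PMSC-MF-3d (0.65 ± 0.14, adjusted p = 0.0014), and Rbl2, its relative p130, 28.9 ± 7.19 CPM in PMSC-MF-7d and 17.5 ± 1.22 CPM in PMSC-MF-3d (0.73 ± 0.13, adjusted p = 0.00020). E2f4, the repressor E2F that p130 binds, was the one that fell (-0.68 ± 0.10, adjusted p = 3.0e-05).

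Targets of p53 mostly rose. Of 30 members of the pathway 17 rose and 2 fell, beside 18.6% and 17.4% of all genes, with a median log2 change of 0.52. Gdf15, a stress-induced TGF-beta relative, averaged 27.5 ± 9.96 CPM in PMSC-MF-7d and 5.58 ± 0.981 CPM in PMSC-MF-3d (2.30 ± 0.33, adjusted p = 2.3e-05). Perp, a p53 effector in cell death and adhesion, had 8.65, 18, 16.5 and 15.4 CPM in PMSC-MF-7d and 3.04, 3.41, 2.93 and 3.99 CPM in PMSC-MF-3d (2.13 ± 0.44, adjusted p = 0.00080). Ccng1, an abundant cyclin G target, averaged 867 ± 99.9 CPM in PMSC-MF-7d and 485 ± 33.9 CPM in PMSC-MF-3d (0.84 ± 0.10, adjusted p = 2.3e-06). Those that fell were Plk2 (-1.06 ± 0.24, adjusted p = 0.0021) and Trp53, the p53 gene itself (-0.33 ± 0.09, adjusted p = 0.0078).

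Genes of the G1/S transition and DNA replication split into cyclins that rose and replication factors that fell. Of 32 members 3 rose and 17 fell, beside 18.6% and 17.4% of all genes, with a median log2 change of -0.41. The 3 that rose were Ccnd1, Ccnd2 and Cdk6, which form the kinases that p16 and p15 block. Ccnd1, cyclin D1, had 442, 434, 501 and 570 CPM in PMSC-MF-7d and 71.1, 69.8, 66.7 and 69.4 CPM in PMSC-MF-3d, 7.03-fold higher (2.81 ± 0.12, adjusted p = 7.9e-12). Cdk6 averaged 69.9 ± 12.2 CPM in PMSC-MF-7d and 23.5 ± 3.22 CPM in PMSC-MF-3d (1.57 ± 0.15, adjusted p = 1.9e-07), and Cdk4 fell (-0.48 ± 0.09, adjusted p = 0.00029).

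Mcm5, a subunit of the replicative helicase, had 84.0, 77.8, 73.2 and 72.4 CPM in PMSC-MF-7d and 150, 134, 138 and 151 CPM in PMSC-MF-3d, without overlap (-0.90 ± 0.13, adjusted p = 3.0e-05). Cdc6, which loads that helicase, averaged 17.1 ± 1.68 CPM in PMSC-MF-7d and 33.3 ± 0.515 CPM in PMSC-MF-3d (-0.97 ± 0.19, adjusted p = 0.00044). Pcna, the sliding clamp, averaged 82.3 ± 4.62 CPM in PMSC-MF-7d and 136 ± 9.47 CPM in PMSC-MF-3d (-0.73 ± 0.08, adjusted p = 1.4e-06). All changes of replication genes that fell were smaller than 2-fold.

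Mitotic genes gave a different picture. Of 30 genes of G2 and mitosis none rose and 2, Aurka and Plk1, fell in the edgeR fit of all libraries, beside 18.6% and 17.4% of all genes. Their median log2 change was -0.12, and the counts depended on the fit. In the fit of the 8 libraries 3 rose and 7 fell without the replicate block and 3 rose and 10 fell with it, DESeq2 called 1 higher and 5 lower, and 1 fell without PMSC-MF-7d replicate 2, 3 or 4 or PMSC-MF-3d replicate 1, 3 or 4. Plk1 lost its call without any one library other than PMSC-MF-7d replicate 1. Aurka, a spindle kinase, averaged 41.6 ± 3.29 CPM in PMSC-MF-7d and 59.8 ± 5.16 CPM in PMSC-MF-3d (-0.52 ± 0.15, adjusted p = 0.0093). Mki67, the proliferation marker Ki-67, had 275, 252, 276 and 246 CPM in PMSC-MF-7d and 221, 212, 235 and 220 CPM in PMSC-MF-3d. Every day 7 library was the higher, which did not pass over the 5 groups (0.24 ± 0.22, adjusted p = 0.42) and did in the fit of the 8 libraries, without the replicate block (0.23, adjusted p = 0.0093) and with it (0.23, adjusted p = 0.0094).

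A list of 25 genes linked to senescence held 5 that rose and 8 that fell, beside 18.6% and 17.4% of all genes, with a median log2 change of -0.22. Glb1, the lysosomal beta-galactosidase behind the usual senescence stain, averaged 62.4 ± 5.16 CPM in PMSC-MF-7d and 42.0 ± 0.951 CPM in PMSC-MF-3d (0.57 ± 0.08, adjusted p = 3.0e-05). Hmga2, a chromatin protein of growing mesenchyme, averaged 208 ± 50.8 CPM in PMSC-MF-7d and 110 ± 5.29 CPM in PMSC-MF-3d (0.92 ± 0.21, adjusted p = 0.0022). Among those that fell were Ccl2, described above, and Igfbp5, which had 2.14, 3.87, 3.15 and 2.58 CPM in PMSC-MF-7d and 33.7, 5.96, 8.03 and 6.58 CPM in PMSC-MF-3d. Its change of -2.21 ± 0.47 (adjusted p = 0.0012) was -1.23 without PMSC-MF-3d replicate 1 and was not called with the replicate block (-1.81, adjusted p = 0.085).

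**Figure D4:**
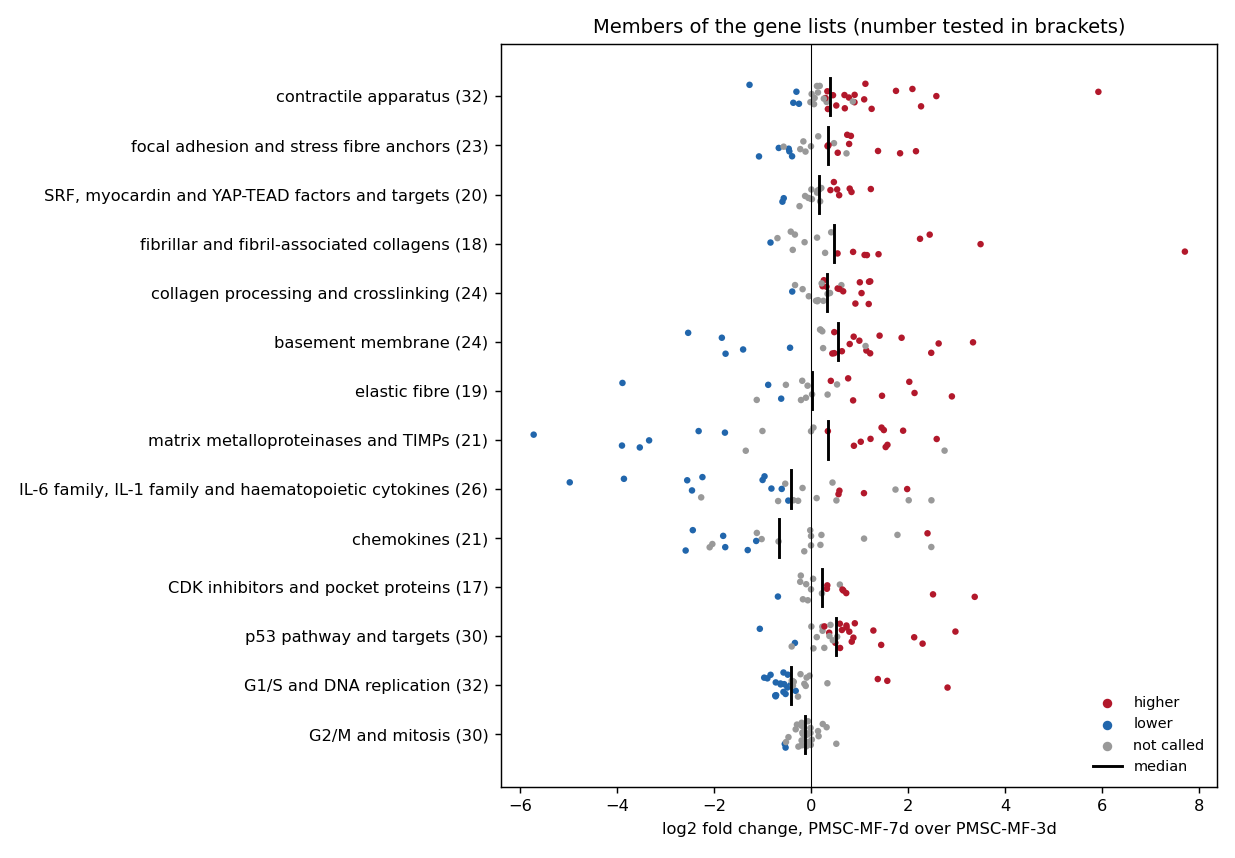
Log2 fold change of PMSC-MF-7d over PMSC-MF-3d (horizontal) of each tested member of 14 gene lists, coloured by call, with the median of the list as a black bar. The lists were chosen with earlier results of these data known. The medians run from 0.56 for the basement membrane to -0.67 for the chemokines, and most members of G1/S and DNA replication lie below 0 while Ccnd1, Ccnd2 and Cdk6 lie above 1.

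The day 7 libraries differed among themselves more than the day 3 libraries did. The biological coefficient of variation that edgeR estimated within a group was 18.2% in PMSC-MF-7d and 10.4% in PMSC-MF-3d. It was 14.1% to 20.8% when each day 7 library was left out in turn and 8.57% to 11.5% when each day 3 library was, so that the ranges did not meet. Over 8842 genes of at least 10 CPM, the SD of log2 CPM was larger in PMSC-MF-7d for 6080 genes, or 68.8%, with a median of 0.132 in PMSC-MF-7d and 0.0966 in PMSC-MF-3d. It was above 1 for 36 genes in PMSC-MF-7d and 7 in PMSC-MF-3d.

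Between pairs of libraries the root mean square log2 difference was 0.209 to 0.450 within PMSC-MF-7d and 0.183 to 0.255 within PMSC-MF-3d, and 0.559 to 0.715 between the groups. Every pair between the groups was thus further apart than any pair within one. Component 1 of the 8 libraries held 77.9% of the variance and split the days, with PMSC-MF-7d at -33.7, -19.6, -29.3 and -31.6 and PMSC-MF-3d at 27.7 to 29.4. On component 2, with 10.1%, PMSC-MF-7d replicates 1 and 2 stood at 20.8 and -18.6, and the other day 7 libraries at -6.07 and -0.664.

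PMSC-MF-7d replicate 2 was also the day 7 library least changed from day 3. Of 1899 genes of at least 10 CPM that rose, it was the day 7 library nearest to the day 3 mean in 969, or 51.0%, and of 2009 that fell in 1077, or 53.6%. Replicate 1 was the furthest in 807, or 42.5%, and in 968, or 48.2%. Across genes changed at least 2-fold, the median log2 difference from the day 3 mean was 1.56, 1.22, 1.44 and 1.54 in replicates 1 to 4 for 355 genes that rose, and -1.51, -1.31, -1.43 and -1.49 for 209 that fell. These counts describe the libraries with genes chosen on the same contrast and carry no test.

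The spread was uneven over gene groups. Replicate 2 was the lowest day 7 library in 13 of 15 elastic fibre genes and 9 of 11 fibrillar collagens of at least 10 CPM, and the highest in 13 of 17 glycolysis genes. Replicate 1 was the lowest in 20 of 29 contractile genes and the highest in 24 of 30 mitotic genes, whereas replicate 2 was the lowest in 22 of those 30. Small leucine-rich proteoglycans varied most of the matrix lists, with replicate 1 highest in 5 of 6. Of the 12 tested members of that list 4 rose and 4 fell, beside 18.6% and 17.4% of all genes, and 2 rose with the replicate block. Over all 8842 genes, replicate 1 was lowest in 3107 and highest in 2602, and replicate 2 lowest in 2635 and highest in 2822.

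Several genes with the widest spread on day 7 showed the same order of libraries. Islr, which encodes the cell-surface protein meflin of mesenchymal progenitors, had 57.2, 2.36, 16.3 and 34.4 CPM in PMSC-MF-7d and 5.02, 2.92, 5.32 and 7.79 CPM in PMSC-MF-3d. Fmod, fibromodulin, had 126, 14.8, 32.1 and 51.9 CPM in PMSC-MF-7d and 10.7, 10.6, 9.79 and 13.5 CPM in PMSC-MF-3d. Mgp, the matrix Gla protein that holds back calcification, had 262, 17.4, 71.6 and 105 CPM in PMSC-MF-7d and 64.1, 30.6, 37.6 and 46.2 CPM in PMSC-MF-3d. In all of them replicate 1 was highest, replicate 2 lowest and replicate 4 above replicate 3.

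Their calls varied with the libraries and the fit. Islr rose by 2.39 ± 0.54 (adjusted p = 0.0017), by 1.75 without PMSC-MF-7d replicate 1, and was not called with the replicate block (1.92, adjusted p = 0.098) or in the 8 libraries alone (2.38, adjusted p = 0.065). Fmod rose by 2.34 ± 0.46 (adjusted p = 0.00057), by 1.56 without replicate 1, and was not called with the block (1.94, adjusted p = 0.075). Mgp did not pass (1.35 ± 0.55, adjusted p = 0.061), at 0.54 without PMSC-MF-7d replicate 1 and 1.71 (adjusted p = 0.0088) without replicate 2. Col15a1, of the basement membrane zone, had 188, 55.0, 279 and 363 CPM in PMSC-MF-7d and 87.1, 114, 97.0 and 107 CPM in PMSC-MF-3d, and passed only without PMSC-MF-7d replicate 2 (1.45, adjusted p = 0.0070, against 1.12 ± 0.44 and 0.054 with it). Amd1, the gene with the widest spread, is not interpreted, since it shares reads with its near-identical copy Amd2.

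**Figure D5:**
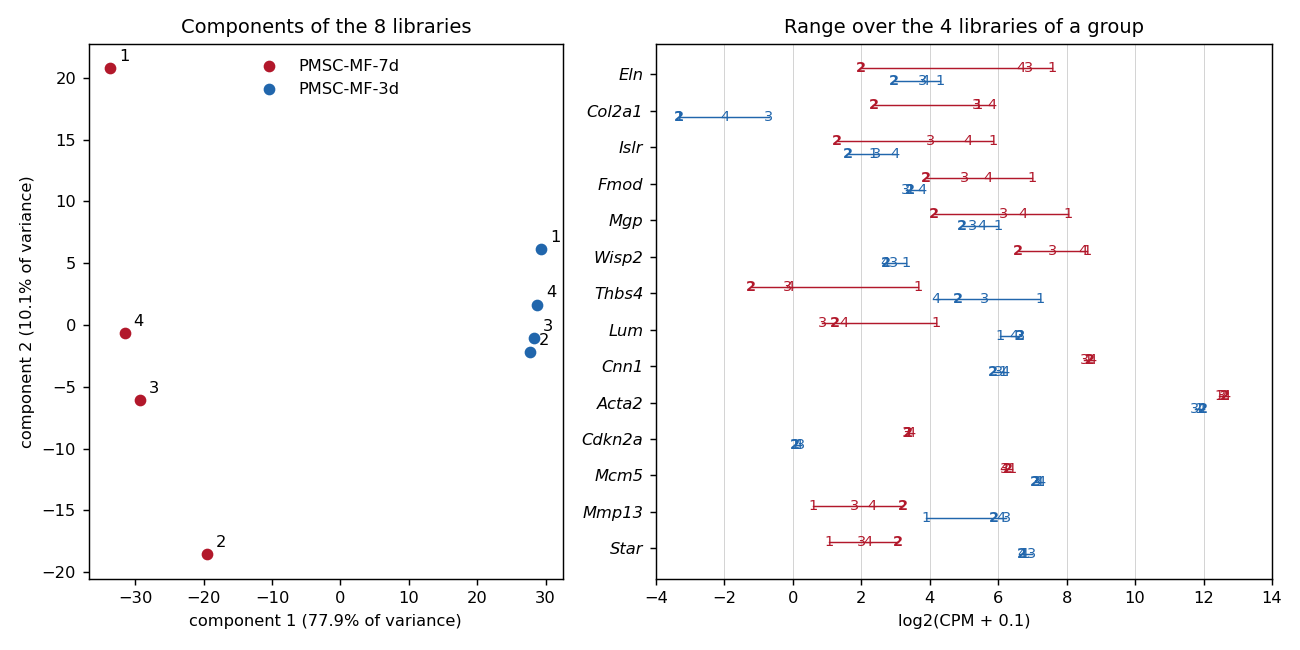
Left, components 1 and 2 of the 8 libraries (arbitrary units, share of variance on the axes). Right, log2 of CPM plus 0.1 in each library of PMSC-MF-7d (upper line) and PMSC-MF-3d (lower line) for 14 genes, with replicate numbers as symbols, replicate 2 in bold and a line over the range. Replicate 2 lies lowest of the day 7 libraries for Eln, Col2a1, Islr, Fmod, Mgp, Wisp2 and Thbs4, while Cnn1, Acta2, Cdkn2a and Mcm5 hardly differ within a group.

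Markers of other liver cells were mostly near 0 on both days. The counts of these lists stand beside 18.6% of all genes that rose and 17.4% that fell. Of 15 hepatocyte markers none rose or fell, at a summed level of 5.90 to 13.4 CPM in PMSC-MF-7d and 7.34 to 18.4 CPM in PMSC-MF-3d, and Apoc3 and Cyp3a11 were at 0 throughout. Of 14 tested endothelial markers 3 fell, with Pecam1 under 0.4 CPM in all 8 libraries and the summed level, 275 to 372 CPM in PMSC-MF-7d and 354 to 428 CPM in PMSC-MF-3d, carried by Eng. Of 14 macrophage and leukocyte markers 1 rose and 2 fell, summed to 11.4 to 16.7 CPM in PMSC-MF-7d and 31.5 to 44.3 CPM in PMSC-MF-3d, with Adgre1 and Cd163 at 0 throughout. Csf1r, the receptor of a macrophage growth factor, carried most of that sum and fell, with 7.06, 10.5, 7.04 and 8.13 CPM in PMSC-MF-7d and 29.4, 37.4, 36.4 and 40.8 CPM in PMSC-MF-3d (-2.14 ± 0.35, adjusted p = 8.2e-05). The number that fell was 1 in the 8 libraries alone, with or without the replicate block, and without any of 5 libraries, which were PMSC-MF-7d replicates 1, 3 and 4 and PMSC-MF-3d replicates 2 and 4. A count of 0 over the 4 libraries of a group allows up to 0.0279 CPM in PMSC-MF-7d and 0.0281 CPM in PMSC-MF-3d.

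Of 12 tested cholangiocyte and epithelial markers 1 rose and 1, Spp1, fell, with the summed level at 28.9 to 35.2 CPM in PMSC-MF-7d and 66.2 to 93.1 CPM in PMSC-MF-3d. In the 8 libraries alone, with or without the replicate block, and without PMSC-MF-7d replicate 3, 2 rose, and without PMSC-MF-7d replicate 2 or PMSC-MF-3d replicate 1 none did. Of 15 stellate cell markers 3 rose and 4 fell, with 1 rising without PMSC-MF-3d replicate 4, and the summed level was 519 to 744 CPM in PMSC-MF-7d and 250 to 328 CPM in PMSC-MF-3d, most of it Ecm1, which other cells make too. Lrat, which stores vitamin A in stellate cells, was at most 0.109 CPM in PMSC-MF-7d and 0.0376 CPM in PMSC-MF-3d. Of 7 tested Schwann and neural markers 1 rose and 1 fell, summed to 61.8 to 143 CPM in PMSC-MF-7d and 133 to 155 CPM in PMSC-MF-3d. None rose without PMSC-MF-7d replicate 1 or 4 or PMSC-MF-3d replicate 1, 2 or 3, and 2 fell without PMSC-MF-7d replicate 2.

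Mesothelial markers had 4 rising and 1 falling of 12 tested and a median log2 change of 1.37. Their summed level was nevertheless lower on day 7, at 365 to 485 CPM in PMSC-MF-7d and 828 to 901 CPM in PMSC-MF-3d, most of it Pdpn. Upk1b, a uroplakin of the mesothelium and urothelium, had 33.7, 84.2, 53.8 and 64.0 CPM in PMSC-MF-7d and 14, 12, 9.65 and 13.3 CPM in PMSC-MF-3d (2.27 ± 0.34, adjusted p = 3.7e-05). Upk3b, a more specific marker, had 4.2, 1.55, 1.69 and 2.33 CPM in PMSC-MF-7d and 0, 0.112, 0.0367 and 0.188 CPM in PMSC-MF-3d (4.76 ± 1.04, adjusted p = 0.0018, and 5.45 without PMSC-MF-3d replicate 4). Pdpn, podoplanin, fell at 285, 355, 319 and 320 CPM in PMSC-MF-7d against 809, 778, 856 and 850 CPM in PMSC-MF-3d (-1.36 ± 0.25, adjusted p = 0.00025). The number that rose was 2 without PMSC-MF-7d replicate 2 or PMSC-MF-3d replicate 1, and 2 fell in the 8 libraries alone, with or without the block. Their part in the rise of the basement membrane genes was not tested.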

How the data were processed

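Counts and levels were read from 1 deposited table per library, and the libraries were grouped by their titles. The submitters' processing notes name mm10 as the build and, as tools, RSEM 1.2.28, STAR 2.5.3a, Trimmomatic and FastQC, while their order and settings are not given in the sources used here. Per the labels' protocols, RNA was taken with the RNeasy Micro kit and libraries were made with the KAPA Stranded mRNA-Seq kit. The deposited expected counts are RSEM's estimates per gene and are not normalised. The deposited TPM values, which RSEM also gives per the file headers, were used to compare levels between genes and in 2 alternative fits. The deposited mean transcript length of each gene in bases, another score per gene in the file headers, was used for the transcript shares of Col2a1 and Cdkn2a.

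Expected counts were rounded and fitted with edgeR 4.0.16 in R 4.3.3, by the robust quasi-likelihood test on all 20 libraries with 1 mean per group for 5 groups, after TMM scaling. filterByExpr kept 14751 of 24848 genes and left out 10097. P-values were adjusted over all of these genes and called under 0.05. The 5 groups shared 1 estimate of the spread per gene, so groups outside the comparison entered its p-values. With each group taken alone, the coefficient of variation was 26.6% in PMSC and 26.3% in HSC, the stellate cells without culture. It was 7.75% in HSC-MF-7d, their myofibroblasts, 18.2% in PMSC-MF-7d and 10.4% in PMSC-MF-3d. The SE is the log2 fold change over the square root of F. Principal components used log2 CPM with a prior count of 2. The floor for a count of 0 is 3 counts over the 4 libraries of a group and covers counting error only. Genes of near-identical families share reads that RSEM divides.

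The comparison, its genes and the gene lists were chosen with earlier results of these data known, so the lists are described by counts and medians without a test. Genes named were drawn from the 20 largest changes in each direction among called genes of at least 20 CPM without overlap between the groups. Others came from the 5 markers Col2a1, Cnn1, Cdkn2a, Il11 and Mmp3 and the 12 genes with the widest day 7 spread. Lists gave up to 6 called members of at least 10 CPM and members that did not pass, and 4 main lists were open in full. Not every gene open to naming under these rules is named. Those printed were picked with their values in view, and Tgfb1, Dusp1, Tpm3, Zyx and other single genes named beside them were picked in the same way.

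Same-numbered libraries of both groups deviated together, with correlations of 0.219, 0.211, 0.180 and 0.204 over 8842 genes, against -0.268 to 0.0857 for other pairs. The numbers were therefore read as pairing the libraries, a reading from the data and not from the labels. The main fit did not use this pairing, and its SE and adjusted p-values are unpaired. It entered only as the replicate block among the alternatives. Coordinates are of GRCm38, the assembly behind mm10, from GENCODE M21 and RefSeq. After the main fit, the test was also run on simulated counts drawn with the spread per gene of that fit, equal in all groups.

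Alternatives were a fit of the 8 libraries, the same with a replicate block, DESeq2 1.42.0, DESeq2's size factors, library totals, no filter, limma 3.58.1 on log2(TPM + 1) and log2(TPM + 0.1), and each library left out in turn.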

Additional observations from a re-analysis of the deposited data

Results flagged for a closer look

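In each group of 4 libraries, a library was picked out where its gap to the nearest other library was a large share of the group's range. Chance picks out about 1 in 20 groups. The check was run on 126 genes named in the text in both groups, so a number of such values are due by chance alone. No cause was tested for any of these values.

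In PMSC-MF-7d replicate 1 this was so for Thbs4 at 12.5 CPM against 0.326 to 0.848 in the other 3, Lum at 18 CPM against 1.72 to 2.69, Itga8 at 48.2 CPM against 26.5 to 29.1, Hsd11b1 at 3.58 CPM against 7.46 to 8.03, Ctgf at 2310 CPM against 3650 to 3720, and Cdkn1a at 306 CPM against 377 to 390. The share of the ARF transcript of Cdkn2a was 80.7% there against 65.5% to 67.7%. In PMSC-MF-7d replicate 2 it was so for Sorbs2 at 42.8 CPM against 28.8 to 30.4 and Dmpk at 269 CPM against 334 to 346.

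In PMSC-MF-3d replicate 1 it was so for Mmp3 at 42.1 CPM against 115 to 120, Igfbp5 at 33.7 CPM against 5.96 to 8.03, Il1rl1 at 30.9 CPM against 12.9 to 15.2, and Lama5 at 3.5 CPM against 8.13 to 8.62. In PMSC-MF-3d replicate 2 it was so for Col4a1 at 3450 CPM against 2710 to 2780, Il6st at 320 CPM against 281 to 286, Lif at 106 CPM against 134 to 137, and Glb1 at 40.6 CPM against 42.4 to 42.5. In PMSC-MF-3d replicate 3 it was so for Aurka at 52.1 CPM against 62.1 to 62.6 and Amd1, which shares reads with Amd2, at 48.8 CPM against 0.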

How the results depend on the processing

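No called gene was called in the opposite direction under any of the 16 alternatives, and no named gene reversed. Of 944 counts under alternatives, 874 stayed within 1.5 times of the reported one. The genes called were 5310, and 6453 in the 8 libraries alone, 5842 with DESeq2, 5342 with its size factors, 5288 with library totals, 4975 without a filter, 5100 and 5012 with limma on log2(TPM + 1) and log2(TPM + 0.1), and 4459 to 5115 with 1 library left out. The fit with the replicate block tested 12874 genes and called 6478 (3106 higher and 3372 lower). It shared 2546 of the 2744 risen genes and 2444 of the 2566 fallen ones with the main fit. Of 183 results checked for genes and lists of the text, 165 kept their call or a count within 1.5 times. The others are given beside their genes and lists or in the next paragraph.

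In the 8 libraries alone, the fallen members were 7 for G2/M, 3 for collagen processing, 2 for myofibroblast identity, 2 for mesothelial markers, 3 for lysosome and 1 for macrophage markers, and the risen ones 3 for G2/M, 0 for chemokines, 1 for stellate and 2 for cholangiocyte markers. With the replicate block the fallen members were 10 for G2/M, 14 for ERK feedback and AP-1, 3 for collagen processing, 2 for mesothelial markers, 2 for lysosome and 1 for macrophage markers, and the risen ones 3 for G2/M, 0 for chemokines, 2 for proteoglycans and 2 for cholangiocyte markers. DESeq2 gave 5 fallen and 1 risen for G2/M, 2 fallen for collagen processing (2 with library totals as well), and 2 risen each for cholangiocyte and macrophage markers. Without a filter 1 macrophage marker fell.

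Both limma fits gave 1 fallen contractile gene, 3 fallen focal adhesion genes, 5 fallen senescence-linked genes and 1 fallen macrophage marker. For G2/M limma gave 1 fallen and 2 risen on log2(TPM + 1) and 0 fallen on log2(TPM + 0.1), and on log2(TPM + 1) 1 stellate marker and 2 cholangiocyte markers rose. With 1 library left out, fallen members ranged from 1 to 4 for the contractile list, 3 to 5 for focal adhesion, 2 to 5 for elastic fibre, 1 to 3 for G2/M, 1 to 2 for macrophage and 1 to 2 for Schwann markers. Risen ones ranged from 1 to 2 for chemokines, 1 to 3 for stellate, 0 to 2 for cholangiocyte, 2 to 4 for mesothelial and 0 to 1 for Schwann markers. The coefficient of variation ranged from 14.1% to 20.8% in PMSC-MF-7d and from 8.57% to 11.5% in PMSC-MF-3d. The cause of these shifts was not tested. Depth limits the genes near 0, such as Col2a1 on day 3.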

Other observations

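More genes of oxidative phosphorylation fell than rose, and more lysosomal genes rose than fell. Of 24 genes of oxidative phosphorylation none rose and 14 fell, with a median log2 change of -0.27, beside 18.6% and 17.4% of all genes. Cyc1, a subunit of complex III, averaged 64.9 CPM in PMSC-MF-7d and 95.5 CPM in PMSC-MF-3d (log2 change -0.56, called by edgeR's quasi-likelihood test), and Cox5a of complex IV 77.4 CPM in PMSC-MF-7d and 113 CPM in PMSC-MF-3d (-0.55).

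Of 26 lysosomal genes 13 rose and 1, Cd63, fell, beside 18.6% and 17.4% of all genes, with a median log2 change of 0.26. Asah1, acid ceramidase, averaged 212 CPM in PMSC-MF-7d and 101 CPM in PMSC-MF-3d (1.07), Grn, progranulin, 256 CPM in PMSC-MF-7d and 155 CPM in PMSC-MF-3d (0.73), and Ctsf, cathepsin F, 12.4 CPM in PMSC-MF-7d and 2.83 CPM in PMSC-MF-3d (2.14). In the 8 libraries alone 3 lysosomal genes fell, and 2 with the replicate block. These lists were chosen with earlier results of these data known.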
